A study of Mus musculus with 2 samples.

Results

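The cells described here are Pi16 Ly6c1 adventitial fibroblasts of the mouse lung, taken from cells carrying a tdTomato mark made by a leptin receptor driver. They were chosen by their transcripts, after cells with fewer than 500 genes or more than 10% mitochondrial transcripts had been set aside. Each chosen cell held at least 1 unique molecular identifier (UMI, 1 counted transcript molecule) of Pi16 and at least 1 UMI in at least 2 of the 5 genes Ly6c1, Scara5, Entpd2, Sfrp4 and Ccl11. Each also held 0 UMIs of Myh11, Mki67 and Top2a, which mark smooth muscle and dividing cells. The gate kept 514 of 10001 filtered cells from the bleomycin library and 389 of 8350 from the saline library, 903 of 18351 in all. These cells are called Pi16 Ly6c1 cells below, and the other 9487 and 7961 filtered cells of the bleomycin and saline libraries are called the other cells.

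The genotype of both libraries was Lepr-CreERT2;Rosa26-tdtomato and the mice were 8 to 10 weeks old, with 1 library from lungs of bleomycin-treated mice and 1 from lungs of saline-treated mice. Live tdTomato-positive cells without surface CD45, EpCAM or CD31 (markers of leukocytes, epithelium and endothelium) were sorted from digested lung and profiled with 10x Genomics 3' v3 chemistry. Bleomycin is a DNA-damaging drug that injures the lung and is widely used to produce fibrosis in mice. The recombinase is made under the leptin receptor gene and acts only when a tamoxifen-type ligand is given, after which the mark is permanent, so a marked cell need not contain Lepr RNA when it is sorted. The sources used here do not give how many mice each library pools, the bleomycin dose, the time of harvest or the tamoxifen schedule. With 1 library per treatment, no difference between bleomycin and saline could be checked against the spread between animals, and treatment cannot be told apart from library.

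Adventitial fibroblasts lie in the connective tissue cuffs around large vessels and airways, outside the thin alveolar walls. In several mouse organs, Pi16-expressing fibroblasts have been described as a reserve population that carries stem-cell-like surface proteins (CD34, Sca-1) and makes loose, decorin-rich matrix. In the lung these cuffs are also a niche for type 2 immunity: adventitial stromal cells make interleukin-33, an alarm cytokine sensed by innate lymphoid cells, regulatory T cells and mast cells, and the eosinophil attractant eotaxin-1 (Ccl11). Pi16 encodes a secreted or surface-anchored peptidase inhibitor-like protein, Scara5 a scavenger receptor that takes up ferritin, Entpd2 an ectoenzyme that hydrolyses extracellular ATP, Sfrp4 a secreted modulator of Wnt signalling, and Ly6c1 a small GPI-anchored surface protein.

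The bleomycin library held 134732429 UMIs over 10138 barcodes, and the saline library held 60937359 UMIs over 8396 barcodes. Pi16 Ly6c1 cells had a median of 9964.5 UMIs (range 900 to 73405) and 2861 genes in the bleomycin library, against 6164 UMIs (range 807 to 30945) and 2080 genes in the saline library. The other cells were somewhat deeper, with medians of 11848 and 6803 UMIs. The 2 libraries shared 25 barcodes, of which 0 were among the Pi16 Ly6c1 cells. UMIs were summed over the cells of a group and expressed as CPM, counts scaled to a fixed total of UMIs in each group, and ratios are given with exact 95% intervals in square brackets, which cover counting error only. A gene is called higher or lower when its ratio was at least 2-fold, the higher sum reached 10 CPM and the interval was clear of 1. Such a call is a rule of size and no test. Where a sum was 0, the ratio was computed against a floor of 3 counts over the group. No barcodes were removed as doublets. Shares of cells with a UMI are also given after thinning, in which 2000 UMIs were drawn at random from each cell. This left out 13 bleomycin and 20 saline Pi16 Ly6c1 cells that were shallower.

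The genes of the gate were used to choose the cells, so their values are a description and support nothing. Pi16 stood at 758 CPM [736–782] in bleomycin and 1151 CPM [1109.9–1194] in saline Pi16 Ly6c1 cells, against 24.1 and 43.3 CPM in the other cells. A chosen cell held a median of 6 Pi16 UMIs in the bleomycin library (range 1 to 78) and of 5 in the saline library (range 1 to 50), and 78 and 43 cells held exactly 1. Ccl11 stood at 514 and 873 CPM in bleomycin and saline Pi16 Ly6c1 cells, Ly6c1 at 229 and 396 CPM, Entpd2 at 181 and 319 CPM, Scara5 at 79.6 and 192 CPM, and Sfrp4 at 108 and 82.0 CPM. Of the 7 genes given as markers of these cells, the 5 just listed and Pi16 form the gate, and Il33 is the 1 that the gate did not use. Ly6c1 is close in sequence to its neighbour Ly6c2, so their counts may be split between the genes. Ly6c1 was also found in epithelial cells (chosen by UMIs of Epcam and of lung epithelial genes), at 134 CPM in the bleomycin library and 6.65 CPM in the saline library. On mm10 (GRCm38), Pi16 is at chr17:29317680-29330593, Ly6c1 at chr15:75044018-75048830, Scara5 at chr14:65666403-65764826, Entpd2 at chr2:25395874-25401321, Sfrp4 at chr13:19623104-19632994, Ccl11 at chr11:82057823-82062955 and Il33 at chr19:29925114-29960718, all protein-coding in GENCODE M21, with Ly6c1 on the minus strand and the other 6 on the plus strand.

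Il33 encodes interleukin-33, which is stored in the nucleus and released when a cell is damaged. It stood at 287 CPM [273–301] in bleomycin Pi16 Ly6c1 cells, against 138 CPM [124–153] in saline Pi16 Ly6c1 cells. In the other cells it stood at 22.9 CPM in the bleomycin library and 7.49 CPM in the saline library. The Pi16 Ly6c1 cells were thus called higher than the other cells in both libraries, with ratios of 12.5 [11.7–13.3] and 18.4 [15.9–21.2]. Smooth muscle cells (at least 3 UMIs of Myh11 and 1 of Des or Actg2) held 6.50 and 1.08 CPM of Il33, and epithelial cells 76.3 and 42.1 CPM, so this marker outside the gate was higher in Pi16 Ly6c1 cells than in either group. After thinning, 34.9% [30.8–39.3] of bleomycin and 19.8% [15.8–24.2] of saline Pi16 Ly6c1 cells held an Il33 UMI (exact Clopper-Pearson intervals), against 0.588% and 0.448% of smooth muscle cells, whose median depths were 9297 and 7366 UMIs. Most saline Pi16 Ly6c1 cells therefore had no Il33 UMI at this depth.

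**Figure D1:**
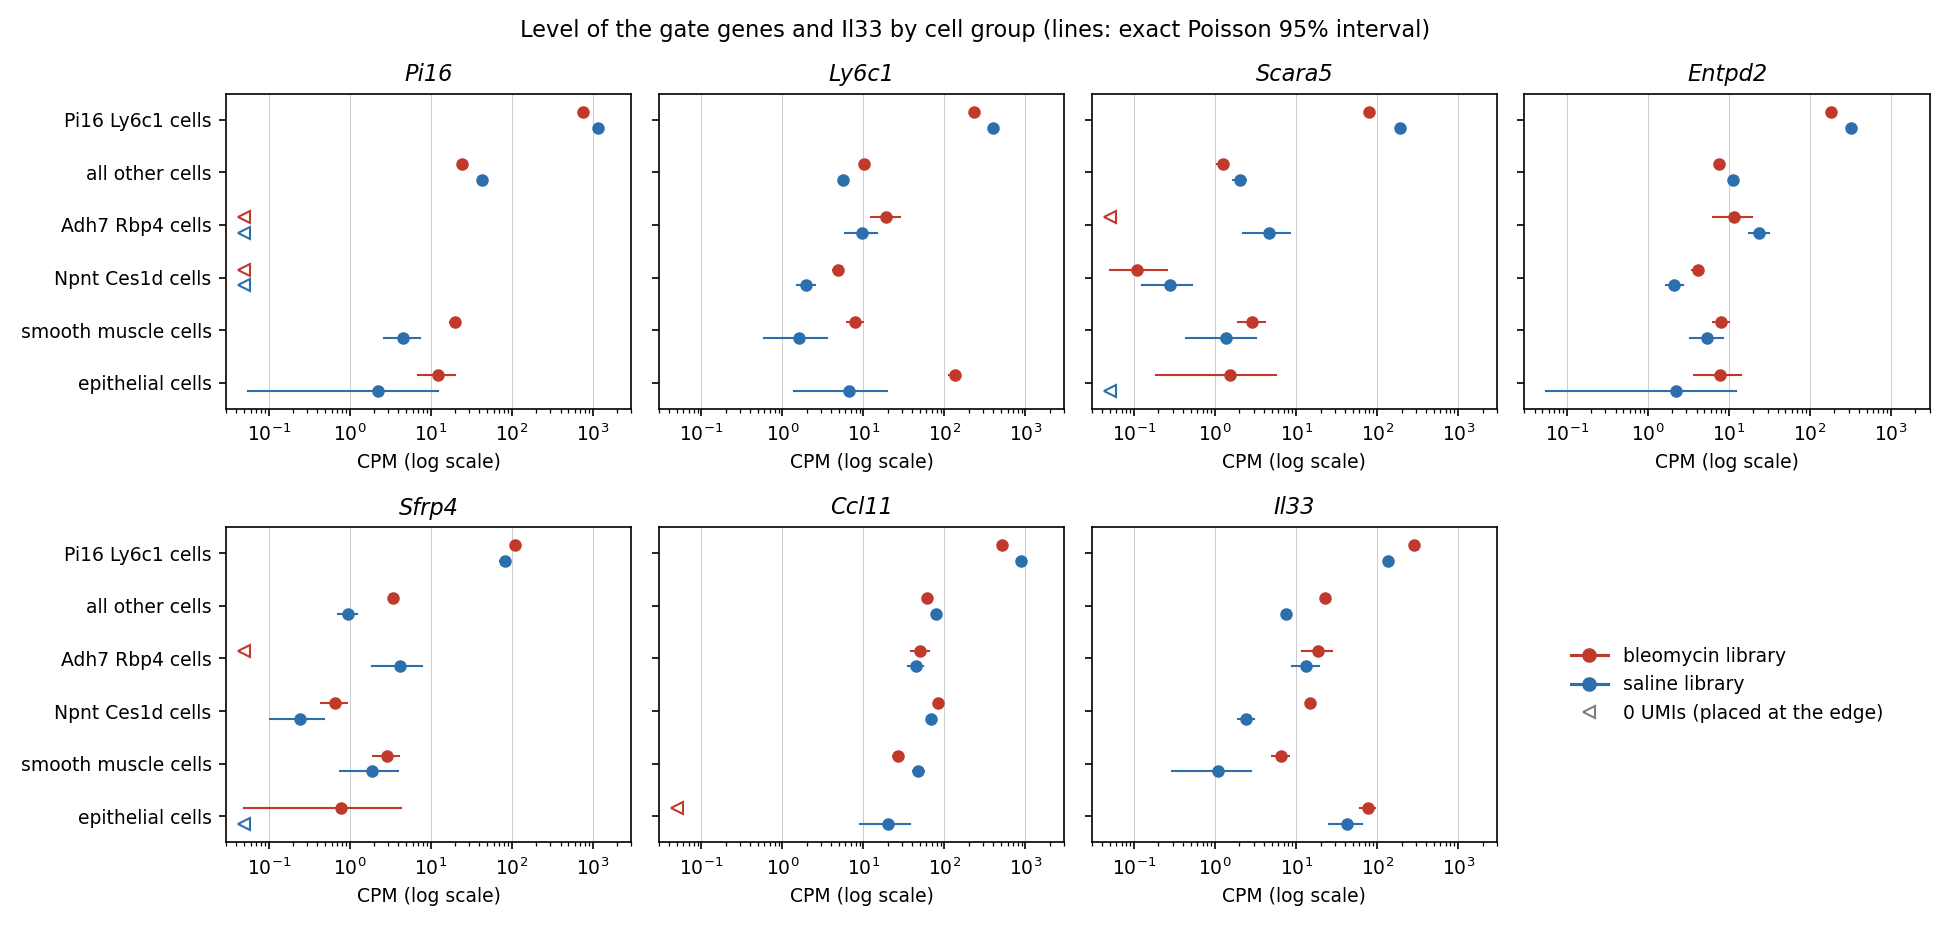
Level of the 6 positive gate genes and of Il33 (CPM, log scale) in 6 groups of cells, with bleomycin in red and saline in blue; lines are exact 95% Poisson intervals and open triangles mark 0 UMIs. The gate genes chose the Pi16 Ly6c1 cells, while Il33, which the gate did not use, stood at 287 and 138 CPM there and at 22.9 and 7.49 CPM in all other cells.

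At the edge of the gate, Il33 moved by degrees and Igfbp6 did not. Gated cells with exactly 1 Pi16 UMI and 2 of the 5 further genes (40 bleomycin and 20 saline cells) held 214 and 92.2 CPM of Il33. Cells just outside that had Pi16 but only 1 further gene (265 and 263 cells) held 59.5 and 25.7 CPM. Cells just outside that lacked a Pi16 UMI but had at least 2 further genes (211 and 115 cells) held 153 and 65.0 CPM, so the gate leaves out cells with part of the same transcript pattern. Igfbp6, which encodes an IGF-binding protein, stood at 702 and 1913 CPM in all gated cells, against 1159 and 2711 CPM in the cells outside with Pi16 and 1 further gene. The exclusion of Myh11, Mki67 and Top2a removed 57 bleomycin and 11 saline cells that met the positive criteria.

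The share of Pi16 Ly6c1 cells was 5.14% [4.71–5.59] in the bleomycin library and 4.66% [4.22–5.13] in the saline library. After thinning, which removes the difference in depth, the gate kept 188 of 9801 bleomycin cells, 1.92% [1.66–2.21], and 199 of 8193 saline cells, 2.43% [2.11–2.79]. The order of the libraries turned round with depth, so no change in abundance is read from either pair. Any Pi16 UMI at all was found in 11.6% of bleomycin and 12.4% of saline cells.

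Against the other cells, the Pi16 Ly6c1 cells held more transcripts of progenitor surface proteins, immune signals, complement, decorin and hedgehog genes. They held fewer of alveolar, contractile and proliferation genes. The exclusion of Myh11, Mki67 and Top2a in part fixed the low contractile and proliferation genes in advance. Of 14 proliferation genes, 3 were lower in both libraries and 0 higher. Of these 14, 13 were tested in the bleomycin library and 6 in the saline library. In the bleomycin library, 343 of 7907 genes were called higher (4.34% of those tested) and 387 lower (4.89%) in Pi16 Ly6c1 cells than in the other cells. In the saline library, 495 of 8085 were higher (6.12%) and 585 lower (7.24%). In both libraries alike, 221 of 7473 genes were higher (2.96%) and 206 lower (2.76%). Genes of the gate were not taken out of these counts, and their calls were fixed by the choice of cells. The median log2 ratio over all genes tested was -0.10 in the bleomycin and -0.09 in the saline library.

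The genes farthest above the other cells, ranked by the library in which each was less apart and with gate genes left out, were Esm1, Dio2, Shisa3, Lsamp and Ccl8. Esm1 encodes endocan, a secreted proteoglycan best known from endothelial tip cells, and stood at 14.9 CPM in bleomycin and 18.9 CPM in saline Pi16 Ly6c1 cells, ratios of 87.5 [54.1–147] and 61.4 [35.1–112] to the other cells. It was carried by few cells, 22 in the bleomycin and 14 in the saline library. Dio2, the deiodinase that activates thyroid hormone, stood at 118 and 46.9 CPM, ratios of 31.8 [28.2–35.8] and 38.6 [28.5–52.5], and was found in 227 of 514 and 55 of 389 cells. Shisa3, an inhibitor of Wnt and FGF receptor maturation, had ratios of 38.5 and 31.5, and Lsamp, a GPI-anchored adhesion protein of the immunoglobulin superfamily, 32.8 and 31.4. Ccl8, a chemokine that attracts monocytes and T cells, had ratios of 18.0 and 39.3. The other 15 genes named by this rank had ratios between 7.28 (Meg3, saline) and 41.2 (Emilin2, saline). They hold the surface and signalling genes Ackr3 (a scavenging receptor for Cxcl12, 12.6 and 22.7), Ly6a (Sca-1, 10.2 and 21.9), Anpep (aminopeptidase N, 9.76 and 11.9), Tek (the angiopoietin receptor, 7.65 and 9.45) and Lypd1 (13.1 and 29.6). They also hold the enzymes Cyp1b1 (17.7 and 26.7) and Gxylt2 (17.9 and 14.5), the lubricant proteoglycan Prg4 (7.82 and 34.5, in 122 and 11 cells), the transcription factor Twist2 (8.72 and 9.37), the imprinted noncoding RNA Meg3 (10.8 and 7.28), Rassf2 (9.05 and 7.53), Slfn5 (11.8 and 12.9) and Il33. Ifi207 belongs to a family of near-identical interferon-inducible genes whose reads may be split between copies.

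**Figure D2:**
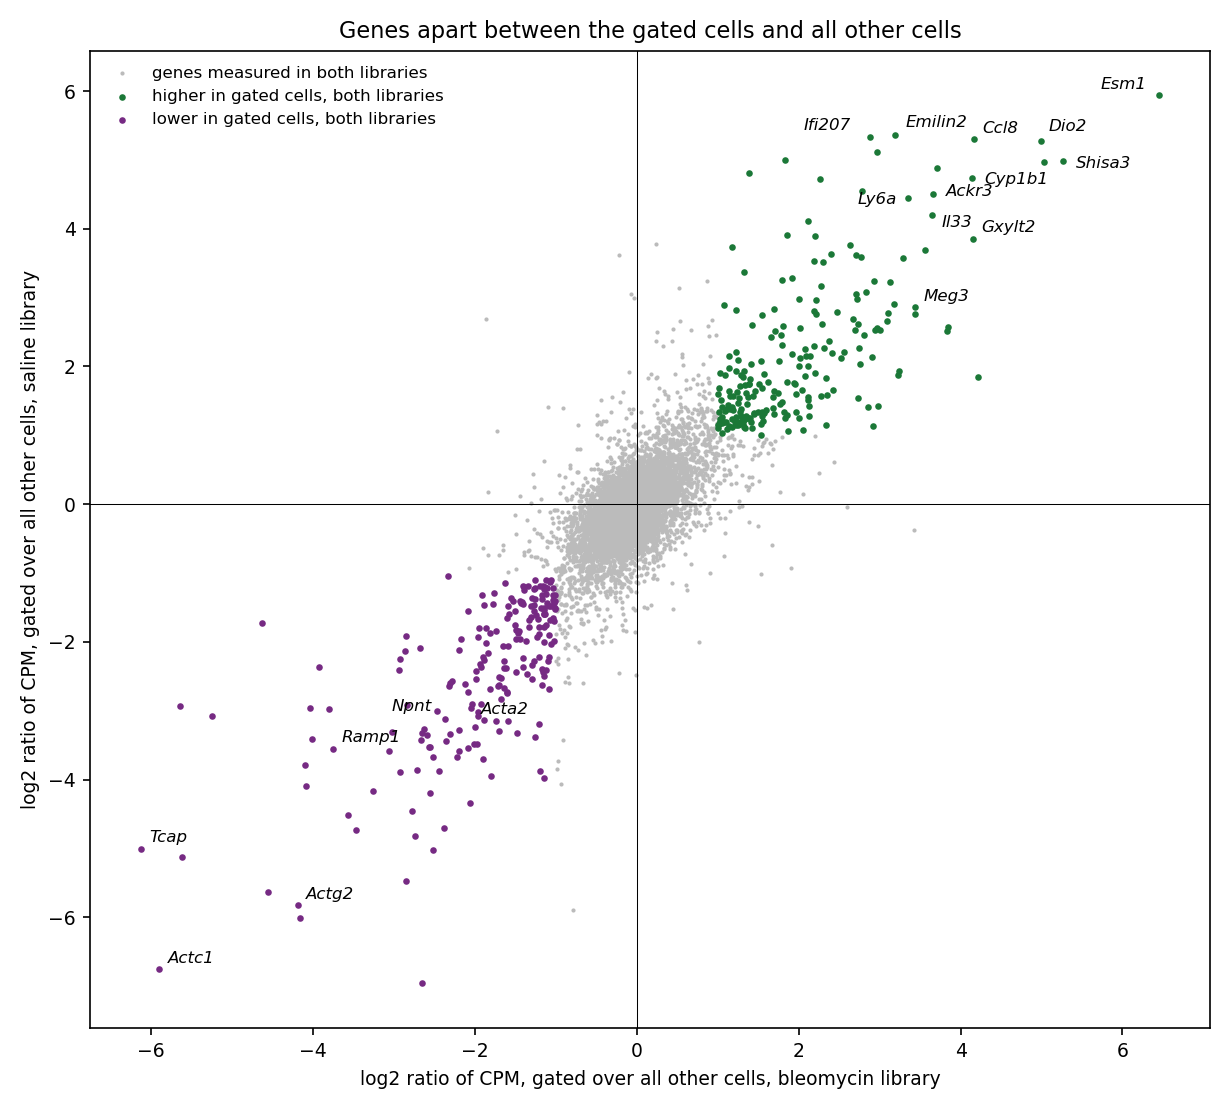
Log2 ratio of Pi16 Ly6c1 cells (labelled gated) over all other cells for each gene tested in both libraries, bleomycin on the horizontal and saline on the vertical axis, gate genes left out. Genes called higher in both libraries lie at the upper right, among them Esm1 at ratios of 87.5 and 61.4, and those called lower at the lower left.

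Of 33 surface and identity genes known from adventitial progenitor fibroblasts, 14 were higher in Pi16 Ly6c1 cells in both libraries and 0 lower, with median log2 ratios of 1.14 in the bleomycin and 1.60 in the saline library. Ly6a stood at 675 and 1436 CPM in bleomycin and saline Pi16 Ly6c1 cells, against 66.2 and 65.6 CPM in the other cells. Cd34, a sialomucin of progenitor and endothelial cells, had ratios of 3.44 and 5.47, the tetranectin gene Clec3b 4.42 and 4.44, Serpinf1 (pigment epithelium-derived factor) 4.94 and 11.5, and the collagen gene Col14a1 7.68 and 5.80. Cd248 (endosialin) had a ratio of 2.62 in the bleomycin library and 28.0 in the saline library, with 51.3 CPM of it in the other bleomycin cells and 8.05 CPM in the other saline cells. Thy1 likewise had ratios of 6.88 and 23.4, with 11.6 and 1.08 CPM in the other cells. Dpp4, a marker of Pi16 fibroblasts in other mouse tissues, was nearly absent: 2 of 514 bleomycin and 6 of 389 saline Pi16 Ly6c1 cells held a UMI.

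Among 28 cytokines and chemokines, 4 were higher in both libraries and 1 lower. Besides Il33 and Ccl8, these were Cxcl12, which retains CXCR4-bearing cells, at 859 and 703 CPM with ratios of 2.34 and 4.64, and Ccl19, a ligand of CCR7 on dendritic and T cells, at 425 and 311 CPM with ratios of 7.90 and 2.69. Cxcl14 was lower, with ratios of 0.428 and 0.315. Of 17 complement genes, 6 were higher and 0 lower. The central component C3 stood at 2359.9 and 3114 CPM with ratios of 3.23 and 3.13, and the alternative-pathway factor Cfb had ratios of 4.05 and 4.33. The classical-pathway proteases C1ra and C1s1 (ratios from 2.17 to 2.90), C2 and the complement regulator Cd55 were the other 4. Of 15 acute phase genes, 2 were higher, Serpina3n (3.93 and 2.53) and Ptx3 (4.26 and 4.45), and 3 were lower, namely Saa3, Lcn2 and Hp, with ratios from 0.104 to 0.420.

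Counts in patterning pathways are read against the 2.96% of genes called higher and the 2.76% called lower in both libraries. Of 11 hedgehog genes, 3 were higher in both libraries and 0 lower, among them Gli1, the target that reports pathway activity, at 2.41 and 2.52, and the co-receptor Cdon at 4.57 and 4.90. Of 40 mesenchymal transcription factors, 5 were higher (Ebf1, Osr1, Osr2, Twist2 and Gata6, ratios from 2.44 to 9.77) and 2 lower (Tbx2 and Tbx5, ratios from 0.290 to 0.453). Ebf2 had ratios of 40.0 and 55.6, but its 8.98 CPM in bleomycin Pi16 Ly6c1 cells was under the 10 CPM minimum in that library. Of 18 retinoid genes, 3 were higher: Rbp4, the carrier of retinol, and Aldh1a2 and Aldh1a3, which make retinoic acid. Aldh1a2 had ratios of 8.62 and 6.86. Of 26 guidance genes, 4 were higher in both libraries and 3 lower. Netrin-1 (Ntn1, 6.60 and 7.91) and the ephrin receptor Ephb2 (5.57 and 6.93) led the higher ones. Of 27 Wnt genes, 2 were higher, Fzd4 (6.63 and 6.14) and Wnt9a (4.14 and 2.11), and 2 were lower. As many Wnt genes were lower as higher, so no direction is read for that list.

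Several matrix genes were higher and none of the fibrillar collagen list was lower. Decorin (Dcn), the proteoglycan that spaces collagen fibrils, stood at 3209 and 6484 CPM with ratios of 5.26 [5.17–5.34] and 12.4 [12.2–12.6], and Lum and Podn of the same family had ratios from 2.39 to 10.4. Of 29 fibrillar collagen and elastic fibre genes, 5 were higher and 0 lower: Col3a1 (2.11 and 2.29), Fbln1 (3.89 and 3.36), Fbln2 (2.11 and 7.45), Tnxb (5.36 and 3.14) and Emilin2 (9.10 and 41.2). Has1, a hyaluronan synthase, stood at 864 and 1249.5 CPM with ratios of 3.15 and 5.40. The insulin-like growth factor binding proteins Igfbp4 (4.00 and 7.91) and Igfbp6 (2.53 and 2.16) were higher and Igfbp2 lower (0.175 and 0.0308).

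Genes of alveolar fibroblasts and smooth muscle were low, with exceptions among markers of other neighbours. Of 16 alveolar fibroblast markers, 7 were lower in both libraries and 0 higher, among them Npnt, an integrin ligand, at 0.194 and 0.115, and the lipase Ces1d at 0.196 and 0.0920. Of 10 smooth muscle markers, 9 were lower and 0 higher, which the exclusion of Myh11 in part fixed, and Actc1, cardiac actin, which ranked lowest by the library where a gene was less apart, stood 59.6 and 108 times below the other cells. Ube2c, Tcap, Pcp4l1, Actg2, Cnn1, Tnnt2, Lipg, Krt7 and Ramp1, the remaining 9 genes of the low end, had ratios from 0.0144 (Tcap, bleomycin) to 0.0854 (Ramp1, saline) and 46 UMIs or fewer in any sum of Pi16 Ly6c1 cells. Ube2c is a proliferation gene, and the exclusion of Mki67 and Top2a in part fixed its low level. Acta2 (smooth muscle actin) was not absent: 248 bleomycin and 106 saline Pi16 Ly6c1 cells held a UMI. After thinning these shares were 22.6% and 14.9%, against 12.04% and 8.62% in epithelial cells, which should lack it and had median depths of 10195 and 5990 UMIs. Of 11 pericyte markers, 1 was higher in both libraries (Abcc9, a potassium channel subunit, at 4.32 and 2.94) and 0 were lower. Of 12 mesothelial markers, 5 were lower and 1 was higher (Nkain4, at 3.36 and 3.07). UMIs of other lineages were rare in Pi16 Ly6c1 cells. Ptprc (CD45) was found in 4 bleomycin and 0 saline cells, Pecam1 (CD31) in 4 and 3, Cdh5 in 2 and 1, and Epcam in 1 and 1.

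Set beside 2 neighbouring groups chosen by their own gates, the Pi16 Ly6c1 cells resembled the second adventitial group in Lepr and stood apart from both in Il33 and Ly6a. Pi16 Ly6c1 cells held 35.0 and 159 CPM of Lepr in the bleomycin and saline libraries. Adh7 Rbp4 cells, that second group (a UMI of each gene and 0 of Pi16, 87 and 246 cells), held 28.5 and 129.5 CPM. Npnt Ces1d cells, the alveolar group (3460 and 4429 cells), held 10.4 and 47.8 CPM. Of Il33, Pi16 Ly6c1 cells held 287 and 138 CPM, Adh7 Rbp4 cells 18.5 and 13.4 CPM, and Npnt Ces1d cells 14.9 and 2.41 CPM. Ly6a stood at 675 and 1436 CPM in Pi16 Ly6c1 cells, against 170.1 and 181 CPM in Adh7 Rbp4 cells and 49.9 and 15.4 CPM in Npnt Ces1d cells. Of 10 markers of the Adh7 Rbp4 group, 5 (Rbp4, Lepr, Dner, Col14a1 and Adamtsl3) were also higher in Pi16 Ly6c1 cells than in the other cells of both libraries.

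Between treatments, Pi16 Ly6c1 cells of the bleomycin library had higher acute phase, chemokine, collagen and elastin genes and lower adventitial identity and interferon-inducible genes than those of the saline library. Of 7832 genes tested, 294 were called higher (3.75%) and 284 lower (3.63%) in bleomycin, and the median log2 ratio over all of them was -0.03. In the other cells, 458 of 8101 genes were higher (5.65%) and 495 lower (6.11%). In Adh7 Rbp4 cells, 401 of 8078 genes were higher (4.96%) and 542 lower (6.71%), and in Npnt Ces1d cells 411 of 7867 were higher (5.22%) and 417 lower (5.3%). Of the 294 genes called higher, 146 (49.7%) were also called higher in the other cells. Of the 284 called lower, 142 (50%) were also called lower there. All these groups came from the same pair of libraries, so ratios of the Pi16 Ly6c1 cells and the other cells are not independent. For single genes, the ratio in the other cells is given for only some of them.

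Identity genes of the adventitial list were lower more often than higher. Of 30 measured members, 3 were higher and 9 lower, and the median of their log2 ratios was -0.75. Ly6a stood at 675 CPM in bleomycin and 1436 CPM in saline Pi16 Ly6c1 cells, a ratio of 0.470 [0.449–0.492], and in the other cells the ratio was 1.01. Cd34 stood at 304 and 628 CPM, a ratio of 0.484 [0.452–0.519]. Clec3b (0.303 [0.291–0.316]), Igfbp6 (0.367 [0.352–0.383]), Pcolce2 (0.299 [0.280–0.318]), Serpinf1 (0.442 [0.418–0.468]) and Tmem100 (0.362 [0.263–0.497]) were lower as well. Gsn, which encodes the actin-severing protein gelsolin, fell the most in absolute terms among these, to 4174 CPM in bleomycin against 20668 CPM in saline, and every Pi16 Ly6c1 cell of both libraries held it. Its ratio was 0.202 [0.199–0.205] in Pi16 Ly6c1 cells and 0.169 in the other cells. Smpd3 was also called lower (0.0898 [0.0468–0.161]), but 2 of its 11 saline cells held 71.8% of the UMIs and without the 2 leading cells of each library it was not called, at a ratio of 0.0228. The 3 genes that were higher were Thy1 (80.0 and 25.2 CPM, 3.17 [2.43–4.18]), Procr, the protein C receptor (2.00 [1.43–2.86]), and Ccn5, a matricellular protein (195 and 34.7 CPM, 5.61 [4.51–7.06]). Ccn5 had a ratio of 0.823 in the other cells. Serpinf1 and Ly6a were near 1 in the other cells, at 1.03 and 1.01. The gate asked for the same UMI counts in both libraries, while Pi16 Ly6c1 cells had median depths of 9964.5 UMIs in bleomycin and 6164 in saline. Setting it on thinned counts kept 194 of the 284 genes called lower between treatments. What part the difference in depth had in the low ratios of identity genes and of decorin was not tested.

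Acute phase genes, most of them known from the liver's response to infection, were higher together: of 10 measured members, 7 were higher and 0 lower, and the median of their log2 ratios was 2.01. Serpina3n, a secreted protease inhibitor, stood at 2114 CPM in bleomycin and 511 CPM in saline Pi16 Ly6c1 cells, a ratio of 4.14 [3.91–4.38], against 2.67 in the other cells. After thinning, 89.4% of bleomycin and 53.1% of saline Pi16 Ly6c1 cells held a UMI, against 11.1% and 5.17% of epithelial cells. Serpina3n and Serpina3g (3.89 [2.98–5.18]) lie in a cluster of close copies, and their counts may be split. Saa3 (serum amyloid A3) had a ratio of 3.40 and was found in 141 bleomycin and 29 saline Pi16 Ly6c1 cells, the iron-sequestering lipocalin Lcn2 (5.25 [3.94–7.14]) in 116 and 15, and haptoglobin (Hp, 12.3 [7.39–22.2]) in 110 and 6. Thinned shares in the bleomycin library were 14.6%, 9.58% and 7.78% for these 3 genes in Pi16 Ly6c1 cells, against 2.94%, 2.94% and 4.94% in smooth muscle cells and 7.41%, 27.8% and 19.4% in epithelial cells, so the shares of Lcn2 and Hp lay below the epithelial ones. In the other bleomycin cells as a whole the shares were 17.5%, 15.2% and 25.3%, above those of Pi16 Ly6c1 cells for all 3 genes. Ptx3, a soluble pattern receptor, had a ratio of 4.501 [3.50–5.88]. Slpi had a ratio of 20.8 [8.77–64.6], but 54.8% of its bleomycin UMIs lay in 2 cells and its thinned share of 2.00% was below the 10.2% in epithelial cells. Lrg1, another acute phase glycoprotein, stood at 45.6 and 1.18 CPM, with 254 UMIs in 134 bleomycin cells and 3 UMIs in 3 saline cells, a ratio of 38.6 [13.05–188]. In the other cells the ratio of Lrg1 was 19.2.

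Signals to immune cells moved in the same direction for most members called. Of 21 measured members, 8 were higher and 1 lower, and the median of their log2 ratios was 0.85. Il33 had a ratio of 2.08 [1.85–2.34] in Pi16 Ly6c1 cells and of 3.06 in the other cells. Cxcl13, the chemokine that draws B cells into follicles, stood at 358 CPM in bleomycin and 7.89 CPM in saline Pi16 Ly6c1 cells, a ratio of 45.3 [29.3–74.4], against 6.35 in the other cells. It was confined to a minority, 81 of 514 bleomycin and 10 of 389 saline cells, with 27.9% of the bleomycin UMIs in 2 cells, and thinned shares of 9.58% [7.15–12.5] and 1.08% [0.296–2.75], against 0.353% in bleomycin smooth muscle cells. The monocyte attractant Ccl7 stood at 661 and 262 CPM (2.52 [2.32–2.74]), the neutrophil attractant Cxcl2 at 317 and 139 CPM (2.28 [2.03–2.56]), and Cxcl14 at 626 and 308 CPM (2.03 [1.88–2.20]). Lif (5.76 [4.46–7.57]) and Il11 (3.07 [2.04–4.79]), cytokines of the interleukin-6 family, and Cx3cl1 (3.15 [1.71–6.34]) completed the 8. The granulocyte factor Csf3 was at 31.3 and 1.58 CPM (19.8 [7.602–73.5]; 47 cells and 1 cell), and Tnfsf8 (CD30 ligand) at 27.5 and 1.18 CPM (23.2 [7.80–114]). In the other cells the ratio of Csf3 was 4.49 and that of Tnfsf8 was 6.57. Cxcl5 was the 1 member lower (0.443 [0.270–0.726]), with 55.6% of its saline UMIs in 2 cells; without the 2 leading cells of each library its ratio was 0.655 and it was not called. The chemokines that set these cells apart from the others were not called: Ccl8 had a ratio of 0.713 [0.648–0.786], Ccl19 of 1.37 [1.26–1.48] and Cxcl12 of 1.22 [1.16–1.29].

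**Figure D3:**
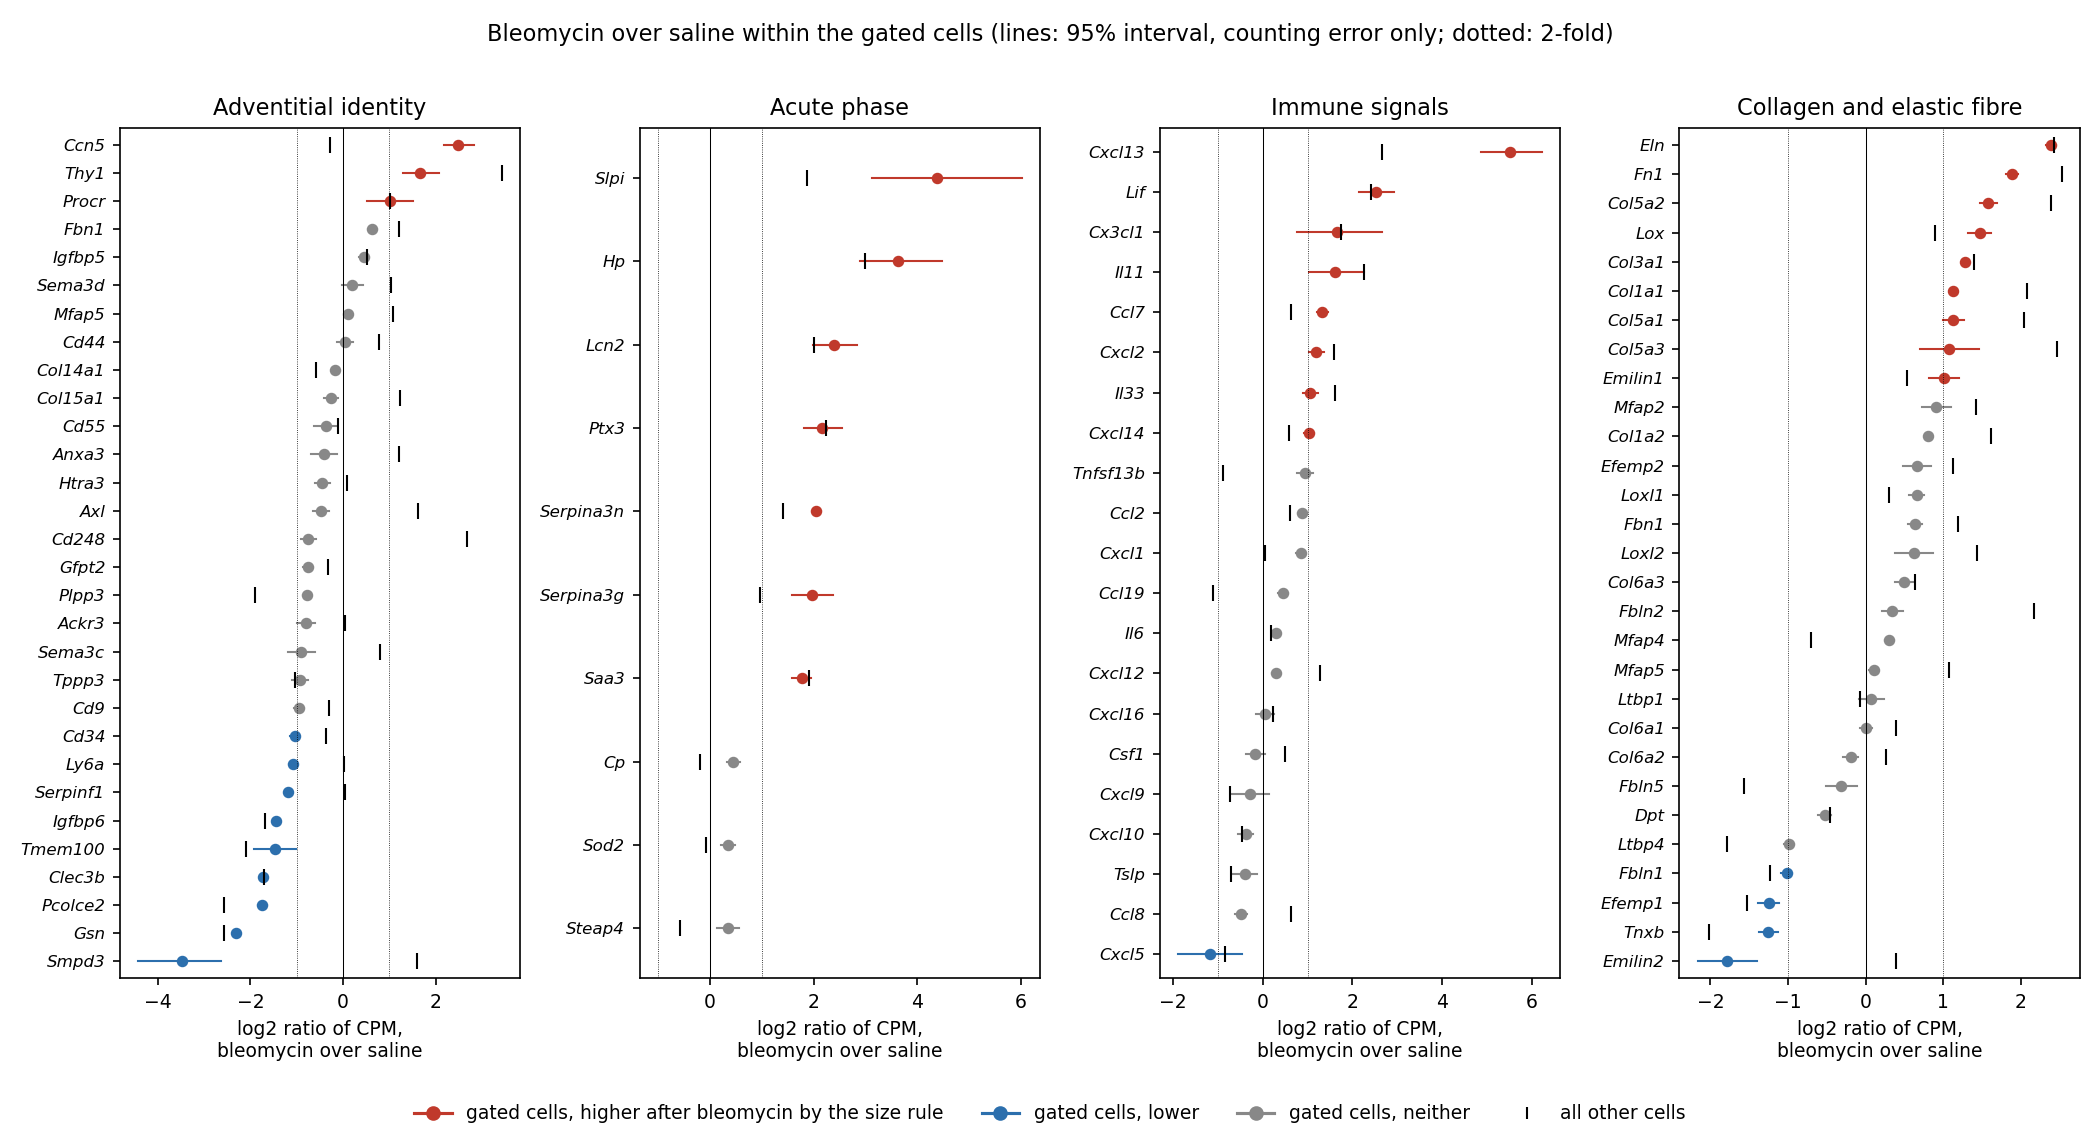
Ratio of bleomycin over saline (log axis) for members of 4 gene lists in Pi16 Ly6c1 cells (points with exact 95% intervals) and in all other cells (ticks). Adventitial identity genes lie mostly below 1, with Gsn at 0.202, and acute phase genes above it, with Serpina3n at 4.14.

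Interferon-inducible and antigen presentation genes were lower where they were called. Of 25 measured members, 0 were higher and 6 lower, and the median of their log2 ratios was -0.78. The guanylate-binding protein gene Gbp2 stood at 59.3 CPM in bleomycin and 236 CPM in saline Pi16 Ly6c1 cells, a ratio of 0.251 [0.219–0.288]. Gbp5 (0.325 [0.211–0.497]), the immunity-related GTPase genes Iigp1 (0.350 [0.306–0.4002]), Igtp (0.211 [0.133–0.327]) and Irgm1 (0.181 [0.120–0.268]), and the immunoproteasome subunit Psmb9 (0.262 [0.206–0.333]) were the other 5. In the other cells these 6 genes had ratios between 0.161 and 0.444. Most of them are known as targets of interferon gamma in mice.

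Matrix genes changed in both directions. Of 29 measured members, 9 were higher and 4 lower, and the median of their log2 ratios was 0.62. Elastin (Eln) stood at 4318 CPM in bleomycin and 821 CPM in saline Pi16 Ly6c1 cells, a ratio of 5.26 [5.03–5.50], and Fn1 (fibronectin) at 2201 and 596 CPM, a ratio of 3.69 [3.50–3.90]. Col1a1 (6632 and 3034 CPM, 2.19 [2.13–2.24]) and Col3a1 (8792 and 3618 CPM, 2.43 [2.38–2.49]), the chains of the main fibrillar collagens, were higher. So were Col5a1, Col5a2 and Col5a3 (ratios from 2.11 to 2.99), the crosslinking enzyme Lox (2.77 [2.50–3.08]) and Emilin1 (2.01 [1.76–2.30]). Without the 2 leading cells of each library Col5a3 stood at 1.97 and was not called. The 4 that were lower hold 3 genes that mark the Pi16 Ly6c1 cells against the others: Tnxb (0.420 [0.386–0.456]), Fbln1 (0.493 [0.469–0.519]) and Emilin2 (0.291 [0.223–0.378]). Efemp1 was the fourth (0.420 [0.382–0.462]). Decorin fell to 3209 CPM in bleomycin, against 6484 CPM in saline, a ratio of 0.495 [0.485–0.506], whereas in the other cells its ratio was 1.17. Fmod (fibromodulin) was higher (4.21 [3.27–5.49]). Of 26 measured proteases and inhibitors, 5 were higher (among them Timp1, Serpine2, Adamts12 and Adamts15, ratios from 2.30 to 5.37) and Htra1 was lower (0.317 [0.278–0.361]).

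Genes known from scar-forming fibroblasts were higher in bleomycin Pi16 Ly6c1 cells, and all but Chl1 and Sfrp1 of those called stood lower there than in the other bleomycin cells. Of 19 measured members, 17 were higher and 0 lower; their log2 ratios had a median of 2.14. In the other cells 21 of 24 were higher, with a median of 3.96. Cthrc1, a secreted glycoprotein used to mark fibrotic fibroblasts, stood at 144 CPM in bleomycin and 6.31 CPM in saline Pi16 Ly6c1 cells, a ratio of 22.8 [13.96–40.1], and at 261 and 0.463 CPM in the other cells. It was found in 128 of 514 bleomycin and 6 of 389 saline cells. Thinned, the shares were 10.8% [8.201–13.8] in bleomycin and 0% [0–0.995] in saline Pi16 Ly6c1 cells, against 7.88% of smooth muscle and 4.63% of epithelial cells of the bleomycin library, so its interval reached nearly down to the smooth muscle share. Tnc (tenascin-C) stood at 118 and 2.37 CPM, a ratio of 49.7 [22.7–136], but its thinned share of 8.58% in bleomycin Pi16 Ly6c1 cells was below the 30.8% in smooth muscle cells and the 12.04% in epithelial cells of that library. In the saline library the share was 0.542% in Pi16 Ly6c1 cells, against 7.85% in smooth muscle cells. The part of free RNA in the Tnc ratio was not tested.

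Chl1, a neural-type adhesion molecule, had shares well above those of smooth muscle and epithelial cells. It stood at 125 CPM in bleomycin Pi16 Ly6c1 cells (697 UMIs in 200 cells), against 0.394 CPM in saline Pi16 Ly6c1 cells (1 UMI), a ratio of 318 [56.8–12559], whose upper bound rests on that 1 UMI. Chl1 was also higher in the other cells, at 109.7 CPM in bleomycin and 1.52 CPM in saline, a ratio of 71.9 [58.4–89.6]. Its thinned share was 15.6% [12.5–19.0] in bleomycin Pi16 Ly6c1 cells, against 2.47% in smooth muscle and 3.70% in epithelial cells. Kif26b, a kinesin-family protein, was found in 79 bleomycin cells and 1 saline cell, with thinned shares of 3.79% and 0%. Its bleomycin over saline ratio was 63.3 in Pi16 Ly6c1 cells and 96.2 in the other cells. Within the bleomycin library, Kif26b had a ratio of 0.583 in Pi16 Ly6c1 cells to the other cells. Sfrp1 (723 and 66.7 CPM, 10.8 [9.30–12.7]), the latent TGF-beta binding protein Ltbp2 (321 and 34.7 CPM, 9.25 [7.46–11.6]) and Timp1 (2048 and 736 CPM, 2.78 [2.65–2.93]) were higher too. Ltbp2 was found in 28.3% of thinned bleomycin Pi16 Ly6c1 cells and 35.4% of smooth muscle cells, so its share did not stand above that of a cell type of another kind. Acta2 (2.02 [1.82–2.24]), Tagln (3.57 [3.23–3.96]) and Des (3.71 [2.50–5.71]), which are contractile genes, were higher as well, at 357, 615 and 41.0 CPM in bleomycin Pi16 Ly6c1 cells against 177, 172 and 11.0 CPM in saline ones. Without the 2 leading cells of each library Acta2 had a ratio of 1.93, just under the 2-fold limit, and was not called. Smooth muscle cells made up 855 of 10001 bleomycin and 451 of 8350 saline cells, and the part of their free RNA in these 3 ratios was not tested.

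Spp1 (osteopontin) had the highest ratio of all genes called, with 3847 UMIs in bleomycin and 0 in saline Pi16 Ly6c1 cells, at least 584-fold higher at the floor of 3 counts. Its level of 691 CPM in bleomycin Pi16 Ly6c1 cells compares with 7559 CPM in the other bleomycin cells, and 2 cells held 56.3% of it. The thinned share of 15.8% [12.7–19.3] in Pi16 Ly6c1 cells lay at those of epithelial (15.7%) and smooth muscle cells (18.0%) of the same library, so it did not stand above cells of other kinds, and the part of free RNA in it was not tested. Other genes at the top of the rank were likewise carried by a few cells: 98.8% of Msln (mesothelin), 96.5% of Igkc and 92.7% of Igha (immunoglobulin chains) lay in 2 bleomycin cells each. Ecrg4 (34.7 and 1.58 CPM, 22.0 [8.45–81.5]) was spread over 69 cells. Gm8797 (18.6, other cells 13.6) at the high end, and Tpm3-rs7 (0.0169, other cells 0.0186) and Cwc22 (0.167, other cells 0.0932) at the low end, had ratios of the same direction in the other cells. Gm8797 and Tpm3-rs7 resemble other genes in sequence, and their counts are uncertain.

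**Figure D4:**
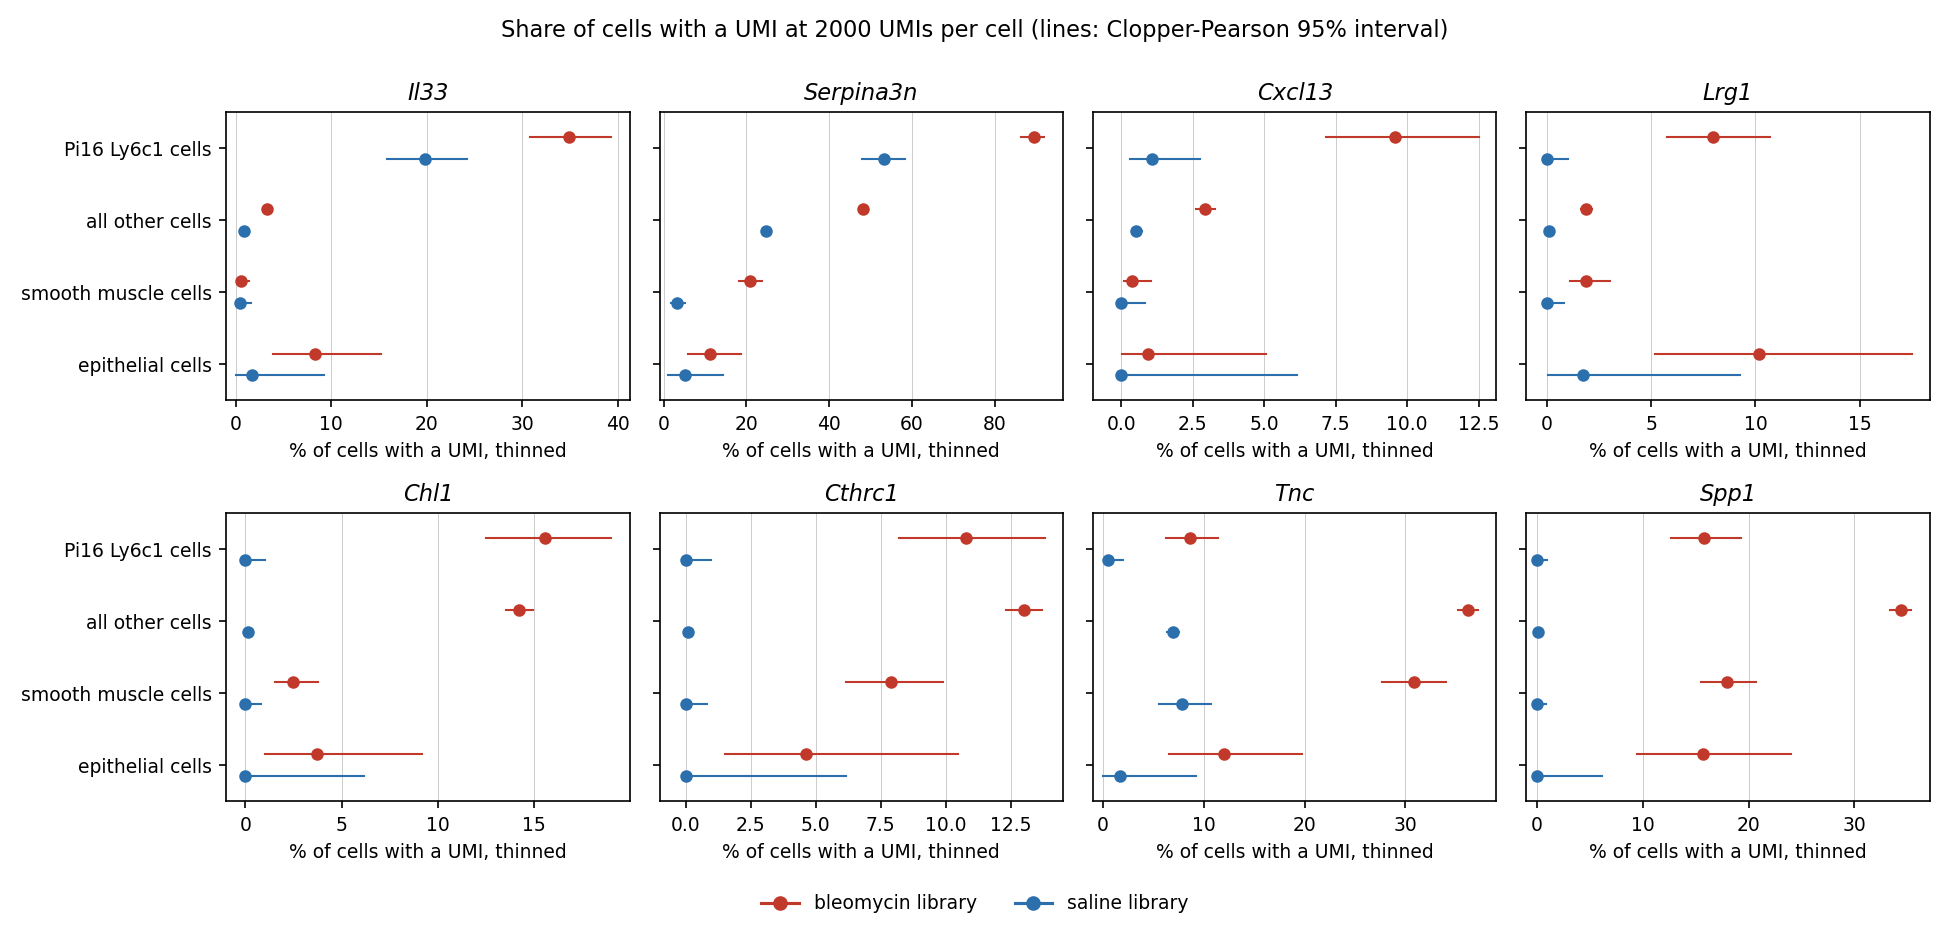
Share of cells with a UMI (percent) after thinning to 2000 UMIs for 8 genes in Pi16 Ly6c1 cells, all other cells, smooth muscle cells and epithelial cells, bleomycin in red and saline in blue, with exact 95% binomial intervals. In the bleomycin library Chl1 was found in 15.6% of Pi16 Ly6c1 cells and 2.47% of smooth muscle cells, whereas Spp1 was found in 15.8% and 18.0%.

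Secreted growth factors and their antagonists showed a mixed pattern. Of 28 measured growth factors, receptors and binding proteins, 5 were higher and 2 lower: Igf1 (792 and 280.4 CPM, 2.83 [2.61–3.06]), the neurotrophin Bdnf (74.4 and 9.86 CPM, 7.54 [5.04–11.8]), the EGF receptor ligands Ereg (4.26 [3.34–5.52]) and Areg (12.6, from 83 and 3 UMIs) and Igfbp2 (38.7, from 85 and 1 UMIs) were higher, and Igf2 (0.294 [0.159–0.532]) and Igfbp6 lower. Without the 2 leading cells of each library neither Igfbp2 (7.74) nor Igf2 (0.200) was called. With 3 saline UMIs the interval of Areg was [4.17–62.4], and with 1 that of Igfbp2 was [6.77–1547]. Of 29 measured BMP, activin and TGF-beta genes, 6 were higher and 2 lower. The BMP-binding protein Bmper stood at 26.2 CPM in bleomycin and 1.97 CPM in saline Pi16 Ly6c1 cells (13.3 [5.57–41.6]), against a ratio of 1.52 in the other cells. Inhba, the activin A subunit, had a ratio of 4.10 [2.77–6.29] and its antagonist Fst (follistatin) of 2.36 [1.89–2.97], against 16.5 and 55.1 in the other cells. Smad7, an inhibitory Smad that TGF-beta induces, was higher (2.08 [1.86–2.33]), and Tgfbi, a TGF-beta-induced matrix protein, fell to 27.9 CPM in bleomycin against 127 CPM in saline (0.219 [0.180–0.266]). Of 14 measured Wnt genes, 4 were higher (Sfrp1, Wif1, Ccn4 and Ccn5) and Wnt5b was lower (0.475 [0.312–0.724]). None of the 11 hedgehog genes was called in either direction, and Gli1 had a ratio of 0.581 [0.445–0.760].

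Transcription factors of the mesenchyme are read against the 3.75% of all measured genes called higher and the 3.63% called lower. Of 34 measured factors, 1 was higher and 3 lower, and the median of their log2 ratios was 0.04. Runx1, which is induced in injured fibroblasts, stood at 107 and 39.4 CPM (2.71 [2.19–3.38]). Ebf1 fell to 67.9 CPM in bleomycin, against 177 CPM in saline (0.384 [0.334–0.441]), whereas in the other cells its ratio was 0.987, and Ebf2 (0.393 [0.264–0.583]) and Creb5 (0.311 [0.243–0.397]) were lower too. Zbtb16, a factor that glucocorticoids induce, fell to 5.21 CPM against 31.2 CPM in saline (0.167 [0.105–0.259]). The further genes at the low end of the rank were Ppl, Pcsk6, Cldn1, Omd, AW551984, Tubb4a, Qpct, Lims2 and the methyltransferase Inmt, with ratios from 0.146 (Ppl) to 0.204 (Lims2). Inmt stood at 224 CPM in bleomycin and 1133 CPM in saline Pi16 Ly6c1 cells, with a ratio of 0.133 in the other cells. Pcsk6, a proprotein convertase, stood at 5.03 and 32.7 CPM (0.154 [0.0964–0.238]).

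The driver gene of the mark, Lepr, was found in 111 of 514 bleomycin and 176 of 389 saline Pi16 Ly6c1 cells. It stood at 35.0 CPM [30.3–40.3] in bleomycin and 159 CPM [144–176] in saline Pi16 Ly6c1 cells, a ratio of 0.220 [0.184–0.262], against 0.176 in the other cells. After thinning, 6.79% [4.75–9.35] and 22.8% [18.6–27.4] of Pi16 Ly6c1 cells held a UMI, while 5.53% and 6.73% of smooth muscle cells, sorted by the same mark, and 0 of 108 and 0 of 58 epithelial cells did. The bleomycin share thus lay at that of smooth muscle cells. Of 12 measured retinoid genes, Rbp4 (243 and 811 CPM, 0.3001 [0.280–0.322]), Adh7 (0.376 [0.292–0.483]) and Lrat (0.344 [0.261–0.452]) were lower and Rdh10 (2.32 [1.88–2.88]) was higher. Aldh1a3, which in the other cells had a ratio of 8.91, stood at 34.9 and 35.1 CPM in Pi16 Ly6c1 cells (0.993 [0.769–1.29]).

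The Pi16 Ly6c1 cells were not uniform. With the gate needing only 2 of 5 further genes, 207 bleomycin and 154 saline cells held exactly 2 and 39 and 33 cells held all 5. Entpd2 was found in 80.7% and 83.8% of cells, Ly6c1 in 71.8% and 64.0%, Ccl11 in 69.5% and 67.9%, Scara5 in 43.6% and 59.9% and Sfrp4 in 31.1% and 22.1%. Since the gate ties these 5 genes to each other, cells without 1 of them had to hold others, and pairs among them are not free. Outside the gate, Il33 was found in 68.3% of bleomycin and 39.8% of saline cells. Cells with a UMI were deeper than cells without for every split but those by Scara5 (medians of 9871 and 10119.5 UMIs in bleomycin) and Sfrp4 in the bleomycin library (9331.5 and 10150.5 UMIs). A split by 1 UMI is a range of levels and no cell type.

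Cells with Sfrp4 held more of certain matrix genes, and cells with Scara5 held more Il33. Cells with an Sfrp4 UMI, compared with cells without, held 204 against 66.3 CPM of Postn (periostin) in the bleomycin library, a ratio of 3.08 [2.61–3.64], and 152 against 40.8 CPM in the saline library, a ratio of 3.72 [2.71–5.11]. Cthrc1 went the same way, with 323 against 73.6 CPM in the bleomycin library (4.38 [3.79–5.08]), and in the saline library 26.2 against 0.510 CPM, where it lay in 6 cells in all. Ebf2 (4.52 and 3.93), the cathepsin gene Ctsh (4.32 and 2.80) and the ephrin receptor Epha3 (2.78 and 2.78) were the other 3 genes farthest apart in this split. Cells with a Scara5 UMI held 427 against 182 CPM of Il33 in the bleomycin library (2.35 [2.12–2.60]) and 185 against 75.4 CPM in the saline library (2.46 [1.92–3.19]). They also held more Cyp1b1, Clu and Clip4, with ratios from 2.24 to 2.85. Sfrp4 was higher too (2.50 and 4.55), but it is a gate gene, so its tie to Scara5 is not free.

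Ly6c1 went with Ly6a: cells with a Ly6c1 UMI held 786 against 374 CPM of Ly6a in the bleomycin library (2.10 [1.92–2.30]) and 1761 against 815 CPM in the saline library (2.16 [1.99–2.35]). Cxcl9, an interferon-induced chemokine, was at 34.0 against 0 CPM and 43.9 against 3.45 CPM in the 2 libraries, but it was found in only 6 bleomycin and 9 saline Pi16 Ly6c1 cells. Osr2, Tnfrsf1b and Gngt2 had ratios from 1.83 to 3.77, and the saline interval of Tnfrsf1b reached below 1. Cells with a Ccl11 UMI held more Ccl8 (3.32 [2.73–4.08] and 5.63 [4.19–7.71]) and more Aldh1a3 (2.84 [1.83–4.61] and 8.90 [3.35–33.4]). Cells with an Entpd2 UMI held more Aqp1, the water channel (2.70 and 3.05), more of the potassium channel gene Kcnk2 (2.34 and 5.17). Fetub (3.68 and 3.45) and Gpld1 (2.24 and 2.27) had saline intervals that reached below 1. Cells with an Il33 UMI held 461 against 146 CPM of Saa3 in the bleomycin library (3.15 [2.75–3.63]) and 182 against 59.7 CPM in the saline library (3.04 [2.35–3.96]), and more Sfrp4 and Slfn5 (ratios from 2.85 to 4.88). The immunoglobulin genes Igkc and Jchain headed the splits by Ccl11 and Il33, and Igha was among the 5 genes of the split by Ccl11 and the 5 genes of the split by Entpd2. These are plasma cell transcripts, and 2 cells held 96.5% of Igkc in the bleomycin library and 74.5% in the saline library.

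**Figure D5:**
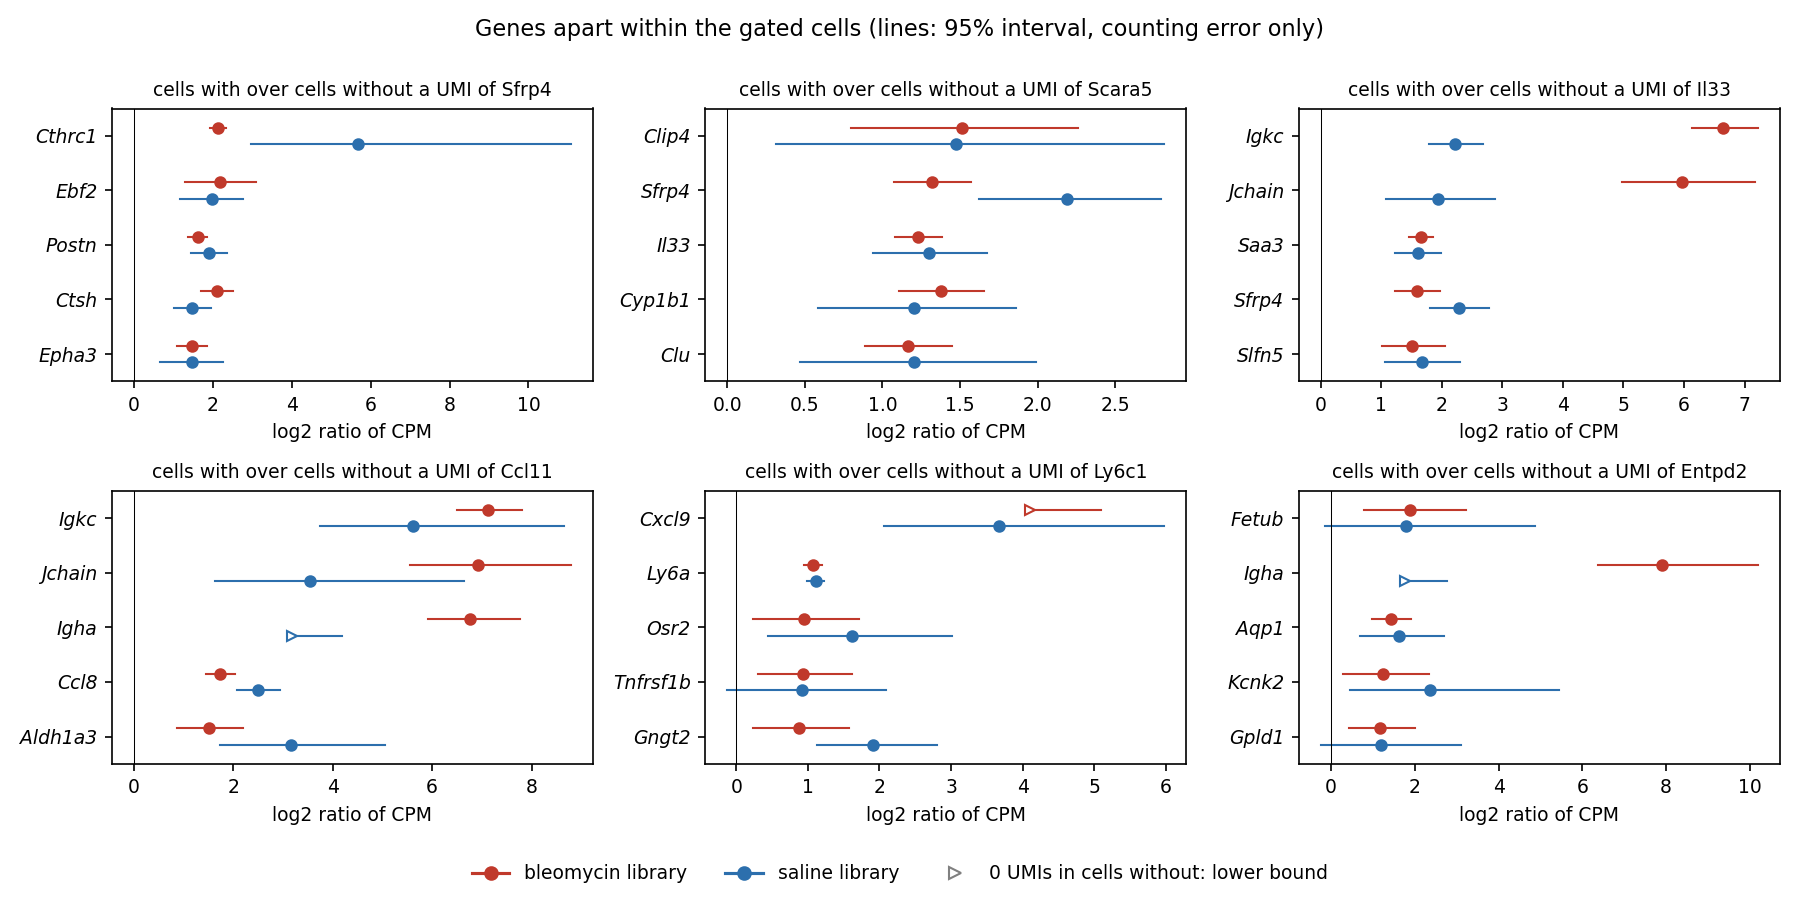
Ratio of Pi16 Ly6c1 cells with a UMI of a gene over those without (log axis) for the 5 genes farthest apart in each of 6 splits, bleomycin in red and saline in blue, lines are exact 95% intervals. Sfrp4-positive cells held more Postn in both libraries, at 3.08 and 3.72, and Ly6c1-positive cells more Ly6a, at 2.10 and 2.16.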

How the data were processed

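Both 10x Genomics single-cell libraries were analysed, 1 per treatment. The deposited files hold raw UMI counts per gene and barcode, made by the authors with Cell Ranger 6.1.2 on build mm10, per the file headers and the submitters' processing notes; how barcodes were called as cells is not given in the sources used here. Gene names and 32285 gene identifiers came from the files, and positions from GENCODE M21 (GRCm38) for 32158 of them.

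Barcodes with at least 500 genes and at most 10% mitochondrial UMIs were kept. The gate, the comparison gates and the 40 gene lists were chosen with earlier results of these data known. Raw counts were summed per library and cell group, and ratios of CPM were given exact conditional binomial 95% intervals, levels exact Poisson intervals and shares Clopper-Pearson intervals, all covering counting error only. No test, standard error or p-value was computed, because each treatment is 1 library. A call needed a 2-fold ratio, 10 CPM in the higher sum and an interval clear of 1. Genes were named by rank: the 20 highest and 10 lowest against the other cells, called alike in both libraries; the 15 highest and 15 lowest between treatments at 20 CPM or more; the 5 highest of each split; and list members that were called. Doublets were not removed; leaving out the 5% of barcodes with the highest Scrublet scores was an alternative, as were other gates, scalings, limits and comparison cells. Leaving out cells with UMIs of other lineages, and the 2 leading cells of each gene, was added after seeing the data. A few genes that met these rules are not reported here. The size rule was run on simulated Poisson counts, in which the altered genes were well above the 10 CPM minimum. These counts held no spread between cells or animals. They therefore cannot check calls near the minimum, calls carried by a few cells or differences between animals. Python 3.11.15, numpy 2.4.6, scipy 1.17.1, pandas 2.3.3, scanpy 1.11.5 and matplotlib 3.10.9 were used.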

Additional observations from a re-analysis of the deposited data

Results flagged for a closer look

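Ccn3 and Ager were called in opposite directions between treatments in the Pi16 Ly6c1 cells and in the other cells. In each case the difference between the 2 ratios was not tested, since there is 1 library per treatment. Ccn3, a matricellular protein, had a bleomycin over saline ratio of 6.44 in Pi16 Ly6c1 cells and 0.463 in the other cells. Ager, a marker of alveolar epithelium, had a ratio of 9.26 and 0.467; 68.9% of its UMIs in bleomycin Pi16 Ly6c1 cells lay in 2 cells, and without the 2 leading cells of each library its ratio was 8.66 and it was not called.

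A further 4 genes were called in opposite directions in the 2 libraries when Pi16 Ly6c1 cells were set against the other cells, again with the difference not tested. Ass1 (an enzyme of arginine synthesis) had a ratio of 0.469 in the bleomycin and 2.66 in the saline library, with 44.8 and 3.85 CPM in the other cells. Fst (follistatin) had ratios of 0.275 and 6.42, with 318 and 5.77 CPM in the other cells, and Cotl1 (an actin-binding protein) 0.301 and 2.10. Igkc had ratios of 2.89 and 0.497; without its 2 leading cells the bleomycin ratio was 0.102.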

How the results depend on the processing

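With 1 library per treatment, no setting speaks to variation between animals, and depth limits genes under about 10 CPM, since the saline Pi16 Ly6c1 cells held 2535323 UMIs in all. The counts of genes called moved with the limits that define a call. The order below is higher and lower between treatments, then higher and lower against the other cells. At 1.5-fold they were 674, 850, 443 and 494, at 3-fold 126, 80, 101 and 104, and with no CPM minimum 508, 562, 395 and 473. With at least 20 CPM, 185 genes were higher and 187 lower between treatments and 129 lower against the other cells. The share of gated cells was 4.36% in bleomycin and 4.14% in saline with at least 2 Pi16 UMIs, 3.07% and 2.81% with 3 of the 5 further genes, and 1.92% and 2.43% on thinned counts. The other 45 recomputed counts and shares stayed within 1.5 times or within the counting interval. A count within this limit can still hold other genes. With the gate set on thinned counts, 365 genes were called higher and 398 lower between treatments. These kept 197 of the 294 genes called higher and 194 of the 284 called lower in the main setting.

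Of single-gene ratios, 1081 recomputed values moved by less than their counting interval, 138 moved by more and 7 changed direction. The 1081 include 90 values at each of 1.5-fold, 3-fold, no CPM minimum and at least 20 CPM. Those settings change the call and not the ratio, so these values could not move. With the gate set on thinned counts, 55 ratios moved by less than the interval, 33 by more and 1 changed direction. Against fibroblast-like other cells alone, the ratio of Actc1 was 1.29 in the bleomycin and 1.27 in the saline library, that of Pcp4l1 1.75 and 1.09, and in the saline library that of Actg2 was 1.13 and that of Ramp1 2.34, each with an interval that reached below 1. That alternative takes the smooth muscle cells out of the comparison. On thinned counts the saline ratio of Ube2c was 1.56. No paired analysis was possible because each treatment has 1 library and the labels give no replicate numbers.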

Other observations

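Further gene groups in Pi16 Ly6c1 cells, bleomycin against saline, are given as values. Of 8 measured prostaglandin genes, 2 were higher and 2 lower: the receptor Ptger3 (13.7 and 2.37 CPM, 5.77 [2.53–16.2]) and the prostaglandin transporter Slco2a1 (12.2 and 0.789 CPM, from 68 and 2 UMIs, 15.5 [4.13–130.5]) were higher, and the receptor Ptgfr (0.395 [0.307–0.506]) and the degrading enzyme Hpgd (0.220 [0.107–0.430]) lower. Slco2a1 had 44.1% of its bleomycin UMIs in 2 cells, and without the 2 leading cells of each library neither it (5.77) nor Hpgd (0.178) was called. Of 9 measured genes of extracellular purine handling, 2 were higher and 3 lower: Alpl, alkaline phosphatase (58.4 and 27.2 CPM, 2.15 [1.65–2.82]), and the adenosine receptor Adora2a (3.05 [1.56–6.65]) were higher, and Entpd1 (0.262 [0.141–0.475]), Enpp3 (0.288 [0.212–0.389]) and the nucleoside transporter Slc29a1 (0.346 [0.274–0.438]) lower; Entpd1 (0.273) was not called without those cells. In the other cells Alpl had a ratio of 0.604. Of 13 measured iron and oxidative stress genes, 1 was higher and 1 lower, namely the metal importer Slc39a14 (152 and 31.2 CPM, 4.88 [3.88–6.23]) and heme oxygenase Hmox1 (46.0 and 119 CPM, 0.386 [0.326–0.458]). Hmox1 had a ratio of 1.02 in the other cells.

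Of 16 measured p53 targets, 4 were higher and 0 lower (Trp53inp1, Zmat3, Gdf15 and Plk2, ratios from 2.00 to 2.66). In the other cells 8 of 17 measured p53 targets were higher and 2 lower. Of 13 glucocorticoid-induced genes, 3 were lower, Tsc22d3 (0.287 [0.232–0.355]), Map3k6 (0.469 [0.332–0.661]) and Zbtb16, and Ddit4 was higher (3.99 [1.92–9.59]). Of 23 immediate early and dissociation stress genes, 0 were higher and Hspa1b was lower (0.427 [0.383–0.475]), with a list median log2 ratio of -0.34. Of 4 measured proliferation genes 0 were called in Pi16 Ly6c1 cells, from which cells with Mki67 or Top2a had been left out.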
